A study of Mus musculus and Miniopterus natalensis with 16 samples.

Results

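The hindlimb (HL) autopod, the foot plate in which the toes and their webbing form, was compared between embryos of the bat Miniopterus natalensis at Carollia stage 16 (CS16) and a pool of mouse forelimb (FL) autopods. The comparison rests on the 4 arrays labelled as CS16 bat HL, of 16 arrays in all, and uses every array feature with a value. The bat samples were the CS16 HL, the CS16 FL, the CS17 HL and the CS17 FL, with 4 embryos per stage taken from wild-caught mothers, and each sample joined the left and right plates of 1 embryo. Each CS16 HL had the FL of the same embryo as its partner. The mouse sample was 1 pool of left and right hand plates from ICR embryos at E13.5, given as 24 in the labels, and it was hybridised to every array. Bat RNA carried Cy3 and the mouse pool Cy5 throughout, with no dye swap. The samples of a repeat number formed a labelling batch, in which the mouse pool was amplified and labelled anew.

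Bats keep webbing between long fingers in the wing, whereas the bat foot loses its webbing and forms short free toes, much as the mouse hand does. Autopods of this age hold condensing cartilage of the digits, interdigital mesenchyme, vessels, nerves and an epidermal cover. The foot plate is patterned by genes shared with the hand plate, among them the Hoxd genes, and by hindlimb regulators such as Pitx1 and Tbx4. The pool comes from the other limb and from another species, and the study set E13.5 as the mouse counterpart of CS17. Species, limb and stage therefore cannot be told apart in these ratios. Nor can expression be told from dye or from the mismatch of bat RNA to mouse oligonucleotides, since the dyes were fixed and the probes were those of the mouse.

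The deposited values are log ratios with no stated base, centring or direction. A supplementary table of the study lists folds of 35 probes for other comparisons of the same arrays, and these settled the base. Under a base of 2 and a reversed sign, features within 0.05 of all 3 listed folds were found for 33 of the 35 probes, against 4 probes with the sign left as deposited. Each value was accordingly taken to be a log2 mouse to bat ratio and multiplied by -1, which makes positive values mean a higher signal in the bat. The labels word the ratio the other way round, as bat relative to mouse. The direction given here is thus likely but not settled, and by that wording higher and lower would change places in every ratio and difference below. Its basis is the match of folds, the red over green convention of such arrays and the dyes of the design.

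A value was present for 13988 of 37440 features (37.4%), and features with identical values on all arrays were counted once, which left 12656. They carry numbers only. Of the 35 listed probes, 30 were met by exactly 1 feature, and these are named below through that match, which is not an annotation. Within 0.1 of the folds, 25 of the 30 still met 1 feature only. Lnp met 7, Taok3 4, Dab2 3, and Olfr1303 and 4930473A06Rik 2 each, so these names are less certain. With the sign left as deposited, 3 probes met exactly 1 feature, so a single match can be wrong. For some probes, among them Casc1, Syt13, Prkcd, Ubr2, Gm10059, Sbsn and BC049702, the study lists no similarity to bat sequence. Some symbols, among them Meis2, Casc1, Prkcd, Gm10059, Ajap1 and Npm1, were assigned by the study through Blat. Pitx1, Tbx4 and markers of other cell types are not among the matched probes, so the hindlimb label could not be checked against its markers.

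The 4 CS16 HL arrays had closely similar ratios. Correlations between pairs of them, across features, lay between 0.940 and 0.958. Their median log2 ratios were -0.13, -0.11, -0.11 and -0.07 for replicates 1 to 4, each a little below 0. Over the 16 arrays the medians ran between -0.17 and -0.04. The number of features more than 2-fold from the mouse pool was 2274, 2367, 2262 and 1869 on the CS16 HL arrays. Replicate 4 had the fewest, with 1451 features higher than 2-fold there against 1526, 1744 and 1619 on replicates 1 to 3, and 418 lower than 2-fold against 748, 623 and 643.

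That count averaged 2193 ± 221 on CS16 HL arrays and 2022 ± 234 on CS16 FL arrays of the same embryos (SD, n = 4 each; p = 0.38, exact two-sided sign-flip test, whose smallest possible p is 0.125). On CS17 HL arrays it averaged 1823 ± 384 (n = 4), and the exact two-sided permutation test against CS16 HL gave p = 0.11, where 0.029 is the smallest value possible. The SD of the ratios within an array was 0.79 ± 0.03 in CS16 HL, 0.75 ± 0.04 in CS16 FL and 0.72 ± 0.07 in CS17 HL, with p = 0.38 against CS16 FL and p = 0.14 against CS17 HL by the same exact tests. After adjustment over these 4 tests the p-values were 0.29 against CS17 HL and 0.38 against CS16 FL, and the sign-flip tests could not have passed at any size of difference. Within labelling batches the SD was higher in CS16 HL than in CS17 HL in 4 of 4 batches (p = 0.125, the smallest an exact sign-flip test can give), and the count was higher in 3 of 4 (p = 0.25 by the same exact test).

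**Figure D1:**
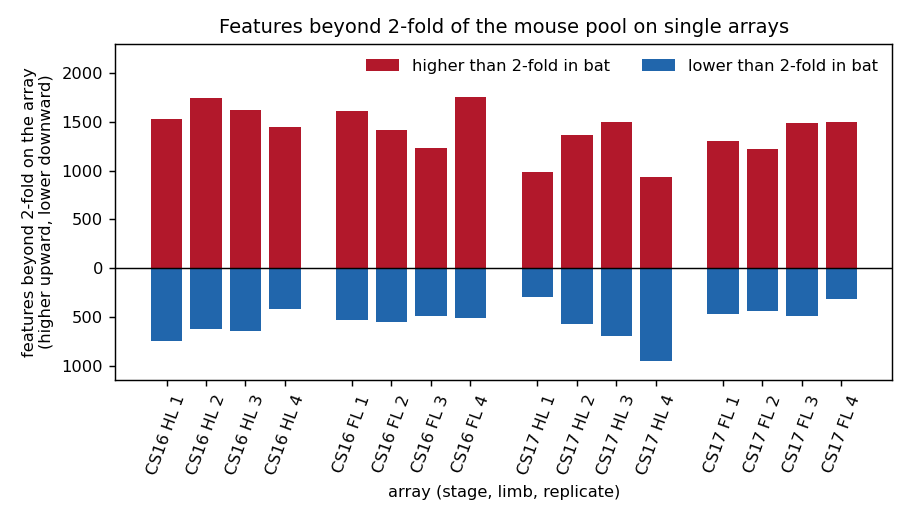
Number of features more than 2-fold higher (upward bars) or lower (downward bars) in the bat than in the mouse pool on each of the 16 arrays, by stage, limb and replicate. The CS16 HL arrays hold 1451 to 1744 features above and 418 to 748 below, and the groups overlap.

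The first question was how far the CS16 bat HL differed from the mouse FL pool. At a fold of more than 2 with an adjusted p below 0.01 (limma, with labelling batch in the fit and Benjamini-Hochberg adjustment over all features), 2060 of 12656 features (16.3%) differed. Of these, 1554 (12.3% of those tested) were higher and 506 (4% of those tested) lower in the bat HL. All 2060 features with a mean beyond 2-fold also met the p threshold, so the fold alone decided the calls. Higher calls were more numerous at every size. Between 2- and 4-fold there were 1323 higher and 496 lower features, between 4- and 8-fold 192 and 9, between 8- and 16-fold 34 and 1, and above 16-fold 5 and 0.

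The bulk of features leaned the other way. The median of the 12656 mean log2 ratios was -0.11, and 7177 features (56.7%) had a mean below 0. The central 90% lay between -0.95 and 1.54, a longer arm on the bat side. With an adjusted p under 0.05 in limma and no fold minimum, 9742 features (77%) differed from the pool, 4171 (33%) higher and 5571 (44%) lower in the bat. This lean depends on the unknown centring, since centring each array on its own median gave 4870 higher and 4651 lower. The median standard error of a mean was 0.09, so ratios far smaller than 2-fold passed. Since only 1 mouse pool was used, its own spread does not enter these tests.

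**Figure D2:**
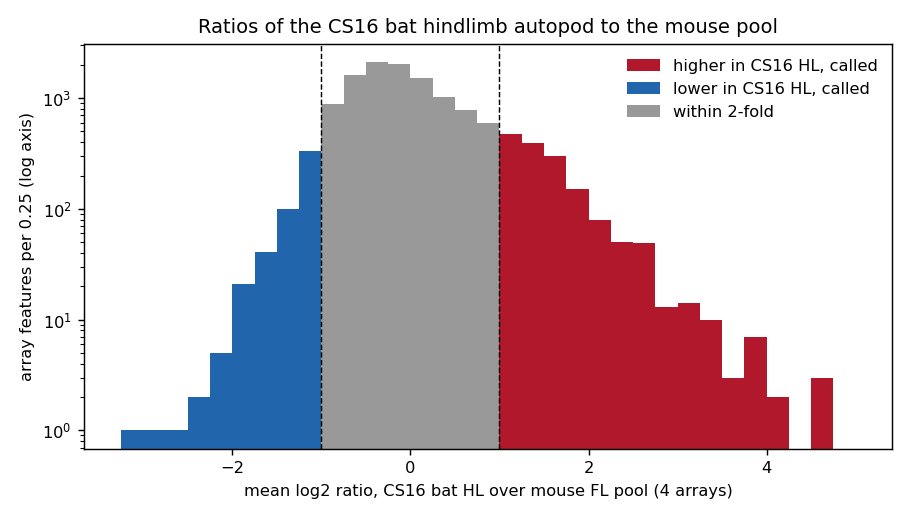
Histogram of the mean log2 ratio of CS16 bat HL over the mouse pool for 12656 features, in steps of 0.25 on a logarithmic count axis, with dashed lines at 2-fold. The right arm, with 1554 features, reaches 4.74, and the left arm, with 506 features, reaches -3.11.

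The calls were then set against the single arrays. Of the 2060 called features, 1420 (68.9%) were beyond 2-fold on all 4 CS16 HL arrays, 381 on 3, 225 on 2 and 34 on 1. The share with all 4 arrays was 75.7% of the higher calls and 48.0% of the lower calls, whose ratios sat nearer to the threshold, at a median log2 ratio of -1.17 against 1.44. Every called feature but 1 had the same sign on all 4 arrays, beside 83.2% of all features tested. Calls required a mean beyond 2-fold, so this agreement in sign largely follows from their choice. The median SD over the 4 arrays was 0.16 in higher calls, 0.17 in lower calls and 0.13 in the remaining 10596 features.

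The threshold cuts through a continuum of values. On the high side, the 3 features just inside it averaged 1.0001, 1.0005 and 1.0012 on the log2 scale, and the 3 just outside 0.9997, 0.998 and 0.9973. On the low side, the 3 just inside averaged -1.0001, -1.0008 and -1.0011, and the 3 just outside -0.9996, -0.9999 and -0.9999. Their SDs over arrays, between 0.05 and 0.35, were far larger than these gaps. A stricter test, in which limma asked whether the fold itself exceeded 2 (adjusted p under 0.05), was passed by 1084 features (8.57%), 935 (7.39%) higher and 149 (1.18%) lower.

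The features farthest above the mouse pool were 17580, 11827, 15633, 29352 and 24704. Feature 17580 had log2 ratios of 4.68, 4.87, 4.76 and 4.63 on the CS16 HL arrays, a mean of 4.74 ± 0.10 (SD, n = 4) and thus a 26.6-fold higher signal in the bat. Feature 11827 had 4.34, 4.51, 4.62 and 4.61, and feature 15633 had 4.44, 4.57, 4.60 and 4.45. Features 29352 and 24704 averaged 4.15 ± 0.12 and 4.10 ± 0.14. For all 5, the 4 arrays lay within 0.32 of each other, a small range beside ratios above 4.

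At the other end stood features 13797, 19198, 13850, 23165 and 20744. Feature 13797 had log2 ratios of -3.14, -3.23, -2.98 and -3.10 on the CS16 HL arrays, an 8.65-fold lower signal in the bat (mean -3.11 ± 0.10, SD, n = 4). Feature 19198 was more scattered, with -2.42, -3.28, -2.73 and -2.81. Features 13850, 23165 and 20744 averaged -2.60 ± 0.34, -2.50 ± 0.13 and -2.35 ± 0.08. These 10 features are the extremes of the ranking that named them, so their size is a description. In the other bat groups, measured against the same pool, feature 17580 averaged 4.81 in CS16 FL, 4.55 in CS17 HL and 4.52 in CS17 FL, and feature 13797 averaged -2.77, -3.02 and -2.60 in that order. None of the 10 passed the test between CS16 HL and CS16 FL or between CS16 HL and CS17 HL, where their smallest adjusted p-values from limma were 0.96 and 0.46.

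**Figure D3:**
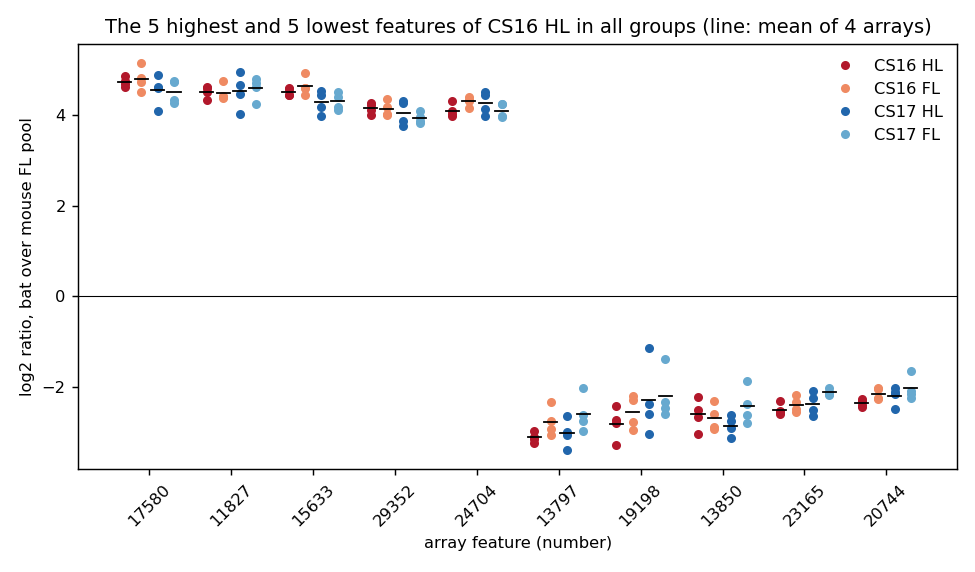
Log2 ratios of bat over mouse pool for the 5 highest and 5 lowest features of CS16 HL on every array, with a line at the mean of each group of 4. The highest features lie at 3.77 or above and the lowest at -1.13 or below in all 4 groups.

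The named probes come next. The study chose its listed probes on these samples, for differences between bat FL and HL or between bat FL and mouse, and the match itself used the limb difference at both stages and the ratio of CS17 FL to the mouse. The list is therefore not independent evidence of any direction. Of the 30 matched features, 12 were called higher and 4 lower in CS16 HL than in the mouse pool, and 14 were not called. Their median log2 ratio was 0.63, beside -0.11 over all features, and 16 of 30 (53.3%) were called, beside 16.3% of all features. These shares stand beside every count by gene role below. Such counts come from the same list and are not results about the roles.

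Of the 4 genes grouped under patterning, 2 were called higher. Lnp, which encodes an endoplasmic reticulum protein and lies beside the HoxD cluster, had log2 ratios of 1.96, 2.24, 1.47 and 1.44, a 3.43-fold higher signal in CS16 HL (mean 1.78 ± 0.39, SD, n = 4; limma adjusted p = 2.9e-08). The 5′ probe of Meis2, a TALE homeobox transcription factor of the proximal limb, had 1.19, 1.39, 0.84 and 1.20 and was 2.23-fold higher (1.16 ± 0.23; limma adjusted p = 4.5e-06). Replicate 3 alone fell short of 2-fold for Meis2, while all arrays of Lnp were past it. Hoxd11, a regulator of distal limb segments, had -0.21, -0.21, -0.64 and -0.07, a mean of -0.28 ± 0.25 that did not pass (limma adjusted p = 0.089). It passed in limma from the CS16 HL arrays alone (adjusted p = 0.019). Without the HL array of replicate 3 the limma estimate was -0.11. Such estimates are adjusted for labelling batch and are not the plain means of the remaining arrays. Zfp800, a zinc finger protein, is listed by the study for regulation of transcription and not for patterning. It averaged 0.56 ± 0.55, with replicate 1 at -0.21 and the others between 0.65 and 1.08. Its limma adjusted p of 0.043 rose to 0.29 without the HL array of replicate 3, where the limma estimate was 0.34. Without that of replicate 1 the limma estimate was 0.91.

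Among genes of matrix and adhesion, 1 of 4 was called. The pair that encodes cartilage matrix proteins had ratios within 2-fold of the mouse pool. Hapln1, the link protein that ties aggrecan to hyaluronan, had log2 ratios of -0.11, -0.12, 0.04 and 0.07 in CS16 HL (mean -0.03 ± 0.10, SD, n = 4), with 2 arrays on each side of 0. Matn1, matrilin 1, had -0.25, -0.24, -0.18 and -0.45, below 0 on all arrays (limma adjusted p = 0.084), and passed from the CS16 HL arrays alone (adjusted p = 0.0043) and without labelling batch 2 (0.043). Ajap1, a protein associated with adherens junctions, averaged 0.68 ± 0.17, a 1.61-fold higher signal with an adjusted p of 7.4e-06 from limma that fell short of the fold minimum.

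Sbsn, suprabasin of the differentiating epidermis, was called on uneven arrays. Its log2 ratios were 0.35, 2.06, 0.47 and 1.33, a mean of 1.05 ± 0.80 (SD, n = 4; limma adjusted p = 0.00042). Replicates 2 and 4 carried the fold. Leaving out the single HL array of replicate 2 or of replicate 4 brought the limma estimate to 0.61 or 0.95 and ended the call. Other epidermal genes were not among the matched probes, so a share of epidermis in these samples was not tested.

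Among genes of signalling and cell death, 1 of 4 was called. Prkcd, the kinase protein kinase C delta, had 1.95, 1.62, 2.19 and 1.96, a 3.82-fold higher signal in CS16 HL (mean 1.93 ± 0.23, SD, n = 4; limma adjusted p = 1.4e-08). Hrk, a pro-apoptotic BH3-only protein, had 0.69, 0.82, 0.41 and 0.38, and Taok3, a kinase of the TAO family, had 0.39, 0.56, 0.72 and 0.79. Both were above the mouse pool on all arrays, 1.49-fold and 1.53-fold, with limma adjusted p-values of 0.00014 and 0.00012, yet within 2-fold. Dab2, an endocytic adaptor, lay at 0.20 ± 0.06 and did not pass (limma adjusted p = 0.087), but passed from the CS16 HL arrays alone (0.015) and after median centring (0.012), which moved its mean to 0.30.

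Genes of chromatin, RNA and protein handling went both ways, with 1 called higher and 2 lower of 7. Kpna3, an importin alpha of nuclear import, had 1.61, 2.10, 2.77 and 2.37, a 4.64-fold higher signal in CS16 HL (mean 2.21 ± 0.49, SD, n = 4; limma adjusted p = 7e-08). Ubr2, a ubiquitin ligase of the N-degron pathway, had -1.93, -1.61, -1.33 and -2.13 and was 3.37-fold lower (-1.75 ± 0.35; limma adjusted p = 1.1e-06). Hist1h2ao, a histone H2A gene, had -1.42, -1.20, -1.70 and -1.69 and was 2.83-fold lower (-1.5 ± 0.24; limma adjusted p = 5.9e-08). The arrays of each of these 3 genes were all past 2-fold, but a probe for 1 H2A gene may also bind its near-identical copies, so the gene behind that value is uncertain.

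The other 4 of this group were within 2-fold. Npm1, nucleophosmin of the nucleolus, had -0.71, -0.75, -0.60 and -0.86, a 1.66-fold lower signal with an adjusted p of 7.1e-05 from limma. The selenocysteine-related gene Secisbp2l averaged 0.65 ± 0.60, with single arrays between 0.01 and 1.43. Without the HL array of replicate 3 its limma estimate was 0.33 and its limma adjusted p 0.058 instead of 0.003. The splicing regulator Rbm10 averaged 0.16 ± 0.45 and the peptidase gene Pgcp -0.17 ± 0.17 (SD, n = 4), neither distinguishable from the mouse pool (limma adjusted p = 0.42 and 0.25).

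Among membrane and sensory genes, Syt13, an atypical synaptotagmin, was called, with 1.04, 1.43, 2.01 and 1.91 and a 3.03-fold higher signal in CS16 HL (mean 1.60 ± 0.45, SD, n = 4; limma adjusted p = 1.8e-06). Tmc1, part of the mechanotransduction channel of inner ear hair cells, averaged 0.73 ± 0.43, and the olfactory receptor gene Olfr1303 averaged 0.31 ± 0.37. Their ranges, 0.34 to 1.32 and -0.06 to 0.74, go with SDs above the median of 0.14 over all features. Without the HL array of replicate 2 the limma estimate for Tmc1 was 0.47. Without that of replicate 3 the estimate for Olfr1303 was 0.11 and its limma adjusted p was 0.38 instead of 0.027.

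All 8 probes with little or no described function were called, 6 higher and 2 lower, beside 53.3% of the matched probes and 16.3% of all features. The study listed probes partly for differences from the mouse, so the count is not a result about such genes. Casc1 had the highest mean of the 30, with log2 ratios of 2.48, 2.74, 2.82 and 2.41 and a 6.10-fold higher signal in CS16 HL. The cDNA gene 1700125D06Rik followed, with 2.89, 2.50, 2.25 and 2.29 and a 5.58-fold higher signal. BC049702, the unannotated probe M400008298, 4930473A06Rik and 1700047M11Rik averaged 1.65 ± 0.23, 1.52 ± 0.25, 1.22 ± 0.05 and 1.02 ± 0.19 (SD, n = 4). The last of these sat at the threshold, with 2 of its 4 arrays below 2-fold, and leaving out the HL array of replicate 3 or of replicate 4 ended its call.

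Gm10059 had the lowest mean of the 30. Its ratios fell into 2 pairs, -2.40 and -2.34 on replicates 1 and 4 and -1.61 and -1.58 on replicates 2 and 3, a 3.94-fold lower signal in CS16 HL. The probe of 4930428O21Rik had -1.58, -0.86, -1.02 and -1.09, and without replicate 1 its mean of -1.14 became -0.99 and the call was lost.

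**Figure D4:**
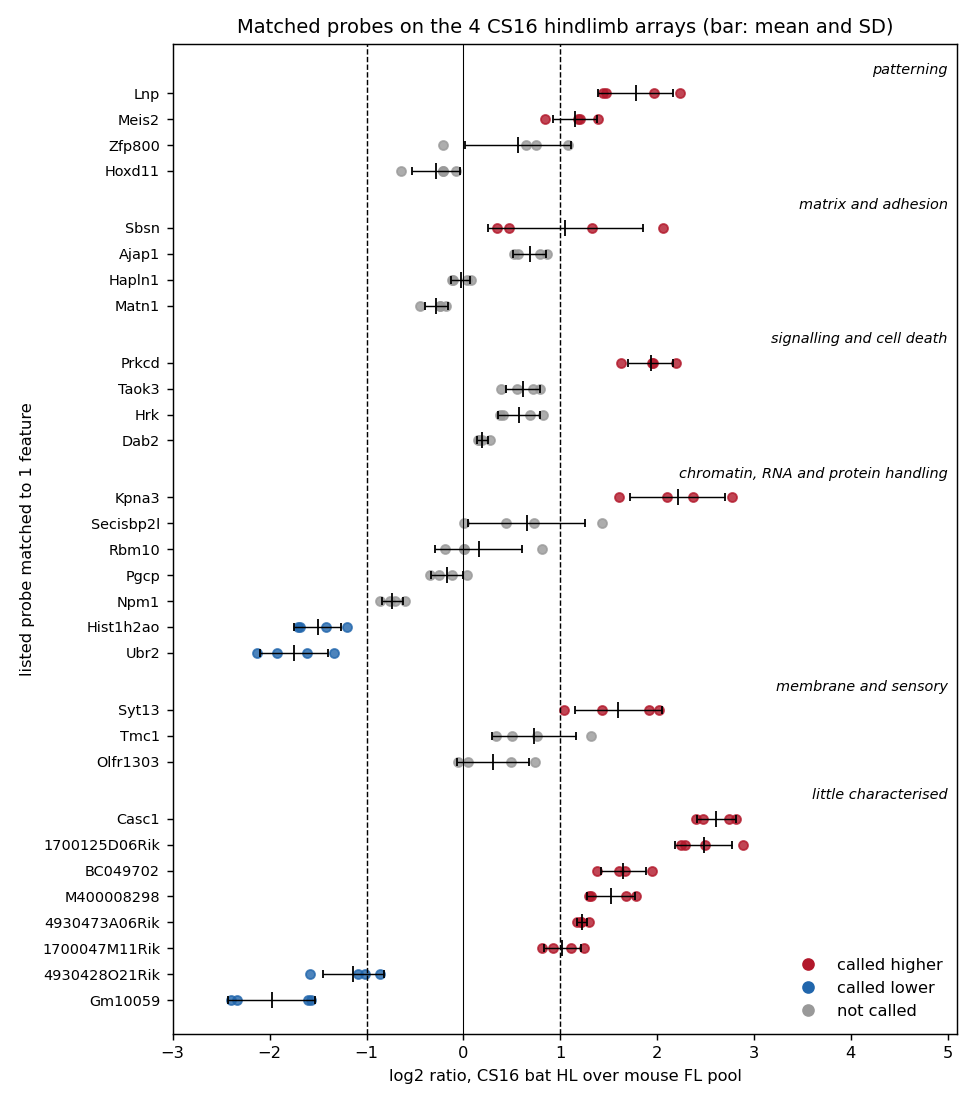
Log2 ratios of CS16 bat HL over the mouse pool for the 30 matched probes, 1 point per array, with the mean and SD in black and dashed lines at 2-fold, grouped by gene role. Called features (12 higher, 4 lower) lie mostly past the dashed lines, and Sbsn, Zfp800 and Secisbp2l show the widest spread.

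A second question was how much of these ratios the HL shared with the FL of the same embryos. Each CS16 limb was measured against the same pool, and the pool cancels in their difference. Within embryos, limma called 0 of 12656 features (0%) at an adjusted p under 0.05. At an unadjusted p under 0.05 there were 634 features, and the smallest adjusted p was 0.60. Restricted to the 5200 most variable features, the test called 8, but limb differences themselves add to the variance by which those features were chosen. The median standard error of a limb difference was 0.12 on the log2 scale.

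The limb differences of the matched probes are values that the list and the match had already fixed, so they are given without a test. Prkcd had log2 ratios of 1.95, 1.62, 2.19 and 1.96 in CS16 HL, against 1.5, 0.96, 0.58 and 0.60 in the FL of the same embryos. Ajap1 had 0.79, 0.87, 0.56 and 0.52 in HL and 1.39, 1.24, 1.28 and 1.42 in FL. HL and FL arrays did not overlap for either gene, with Prkcd higher and Ajap1 lower in the HL. The study listed both for their limb difference at CS16, so this separation adds no support. For Meis2, HL arrays lay between 0.84 and 1.39 and FL arrays between 1.73 and 2.70. For Hoxd11, HL arrays were below 0, between -0.64 and -0.07, and FL arrays above it, between 0.22 and 0.96, while after median centring 1 of the 4 HL arrays stood at 0.0011. Measured against the pool by the same rule, 2060 features were called in CS16 HL and 1915 in CS16 FL, of which 1554 and 1464 were higher.

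Finally, it was asked whether the same limb differed at the later stage. CS16 HL and CS17 HL came from different embryos, and limma with labelling batch called 36 of 12656 features (0.284%) at an adjusted p under 0.05, 25 (0.198%) higher and 11 (0.0869%) lower in CS16 HL. Without the replicate block it called 358. From the CS16 and CS17 HL arrays alone it called 0, with 1644 features at an unadjusted p under 0.05. Quantile normalization gave 15 higher and 27 lower, and leaving out any 1 labelling batch left 0 to 10 calls. The largest difference was 2.52-fold, and 6 of the 36 exceeded 2-fold. Of the 36, 21 were among the higher calls of CS16 HL against the mouse, 1 was among the lower calls and 14 were not called there.

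Among matched probes, 2 passed. The listed folds used in the match also fix the CS17 HL means of these probes, so the 2 differences are not independent of the list. Hapln1 had log2 ratios of -0.11, -0.12, 0.04 and 0.07 in CS16 HL, against 1.02, 1.10, 0.93 and 0.68 in CS17 HL, a difference of -0.96 (SE 0.12; limma adjusted p = 0.0066). Its CS16 values centred on the mouse pool, whereas every CS17 value was above it. The cDNA gene 1700125D06Rik had 2.89, 2.50, 2.25 and 2.29 in CS16 HL, against 1.01, 1.41, 1.46 and 1.01 in CS17 HL, a difference of 1.26 (SE 0.20; limma adjusted p = 0.025). Neither passed from the arrays of those groups alone (adjusted p = 0.12 for both) or without labelling batch 1 (0.12 for Hapln1 and 0.16 for 1700125D06Rik). Leaving out any other batch kept Hapln1 under 0.05 but not 1700125D06Rik.

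Feature 14121, chosen afterwards for the smallest p, had 0.47, 0.19, 0.51 and 0.53 in CS16 HL and 1.15, 1.30, 1.58 and 1.39 in CS17 HL (limma adjusted p = 0.0041). Feature 14081, also chosen after its values were seen, had 1.24, 1.16, 1.56 and 1.59 in CS16 HL and 2.09, 2.55, 2.56 and 2.39 in CS17 HL (limma adjusted p = 0.012). Neither passed from the compared arrays alone (0.12 for both) or without labelling batch 1 (0.065 for both). Without batch 4 neither passed (limma adjusted p = 0.061 for 14121 and 0.079 for 14081). Without batch 2 feature 14121 passed (0.029) but 14081 did not (0.065), and without batch 3 both passed (0.032 and 0.049). For each of these 4 features the CS16 and CS17 arrays did not overlap, which largely follows from their choice by the stage test and adds no support. By the 2-fold rule against the mouse, 1655 features were called in CS17 HL, 1164 higher and 491 lower.

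**Figure D5:**
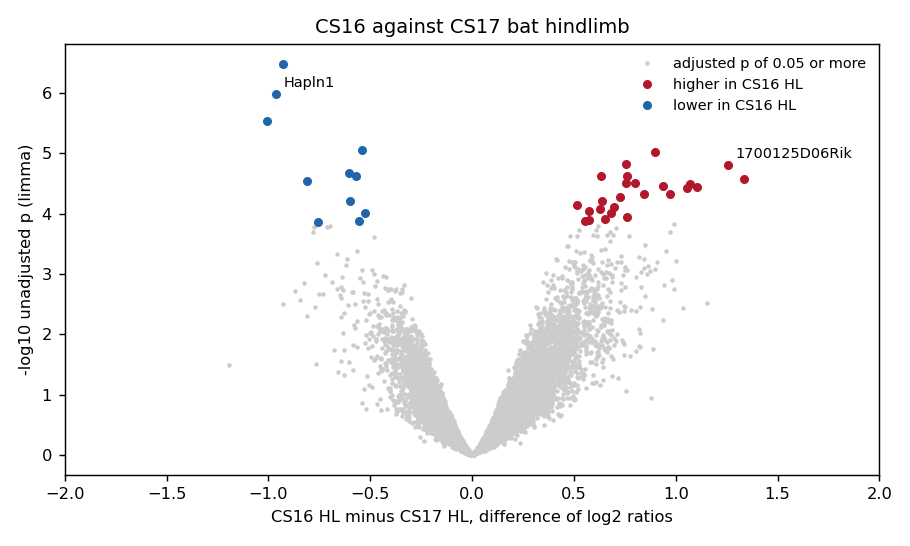
Difference of mean log2 ratios, CS16 HL minus CS17 HL, against the unadjusted p of limma on a -log10 scale for 12656 features, with the 36 called features in colour and the matched probes among them named. The 25 features higher and the 11 lower in CS16 HL differ by at most 1.34 on the log2 scale.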

How the data were processed

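The authors deposited a table of log2 ratios with a column for each 2-colour array (mouse OpArray slides). Per the methods, spots were read in GenePix Pro and processed in R, where the named steps run from background correction and normalisation to imputation, a batch correction and filters on spot quality and variance. How many of them the table includes is not stated. Within features the median SD of batch means was 0.03, where 0.08 would arise without a batch effect, so the values look already batch-corrected and a fit without the batch counts too many degrees of freedom. Imputed values are not marked.

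The sign was turned and 12656 features tested with limma 3.58.1 in R 4.3.3 (lmFit, eBayes, treat), adjusted by Benjamini-Hochberg. Ratios and stage differences had labelling batch as a term, and limb differences the embryo, with 9 and 6 residual degrees of freedom. Repeat numbers pair samples because the labels tie them to labelling batches and the study to embryos; correlations of CS16 HL and FL deviations lay between -0.37 and -0.08. Named features were every listed probe met by 1 feature within 0.05, the 5 highest and 5 lowest called features and those next to the fold threshold. The 3′ probe of Meis2, not among the listed probes, was not analysed here. Lists written for gene names were not used, because features carry numbers only. The steps were tested on simulated data. Members and lists were chosen with earlier results of these data known. Tables and plots used Python 3.11.15, pandas 2.3.3, scipy 1.17.1 and matplotlib 3.10.9. Alternatives were no replicate block, only the arrays compared, median centring, quantile normalization, the 5200 most variable features, every row counted, robust moderation, other folds, a wider match tolerance and replicates left out. Leaving out single CS16 HL arrays and tests of array spread within labelling batches were added after the data were seen. No scanner files were used, so signal over background is unknown and the number of arrays limits precision.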

Additional observations from a re-analysis of the deposited data

Results flagged for a closer look

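For 2 matched probes the CS16 HL and CS17 HL differed by the test of the difference itself, Hapln1 by -0.9605 and 1700125D06Rik by 1.2564 on the log2 scale, though neither passed from the arrays compared alone or without labelling batch 1. For 2 others every array of 1 group lay on the opposite side of the mouse pool from every array of the other. The share of all features split in this way is not given here, so these 2 are descriptions only. Hoxd11 was below the pool in all CS16 HL arrays and above it in all CS16 FL arrays, a difference of -0.8367. The study had used this difference to list the probe and the match had used it to name the feature. It is therefore given without a test, and no feature passed the limb test in the main fit. After median centring 1 of its 4 HL arrays was just above 0, at 0.0011. Dab2 was above the pool in all CS16 HL arrays (0.15 to 0.28) and below it in all CS17 HL arrays (-0.50 to -0.17), a difference of 0.5268 that did not pass over all features (limma adjusted p = 0.12). The folds used in the match fix the CS17 HL means of matched probes. Their differences from CS17 HL are therefore not independent of the list. Among 44 sets of 4 CS16 HL values tested for a single distant array, 0 passed Dixon's test.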

How the results depend on the processing

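The count of features beyond 2-fold in CS16 HL stayed within 1.5 times of 2060 under all alternatives but those of the fold itself, which gave 5003 above 1.5-fold (2629 higher, 2374 lower) and 241 above 4-fold (231 higher, 10 lower). It ran between 2014 and 2179 without 1 labelling batch and between 2007 and 2183 without 1 CS16 HL array. Median centring of the arrays, against a median ratio of -0.11 as deposited with the sign turned, gave 1791 higher and 339 lower features. The 5200 most variable features are a smaller set, chosen by a variance to which limb and stage differences themselves add. Among them 4117 differed from the pool at a limma adjusted p under 0.05, and the limb test called 8 and the stage test 143. The limb count was 0 in every other alternative. The stage test called 358 without the replicate block and 0 from the compared arrays alone, 0 to 10 without 1 labelling batch (0 without replicate 1) and 1 to 11 without 1 CS16 HL array. Dropping the replicate block moved no other count of calls by over 1.5 times, though limb differences at an unadjusted p under 0.05 numbered 1044 instead of 634. With single HL arrays left out, the values below are limma estimates adjusted for labelling batch, not plain means of the remaining arrays. Hapln1, near 0, turned to 0.0779 after centring and lay between -0.0695 and 0.0058 with replicates or single HL arrays left out (above 0 without batch 2 at 0.0001, without HL array 1 at 0.0009 and without HL array 2). Rbm10 lay between -0.0701 and 0.3101, below 0 only without batch 2 (-0.0609) or HL array 2 (-0.0701). Calls of Sbsn, 4930428O21Rik and 1700047M11Rik, all near 2-fold, were lost in 12 of 558 checks over 40 features. The cause was not tested.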

Other observations

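Features with identical values on all arrays formed 50 sets of 1382 features. The 3 largest held 622, 384 and 154 features, with mean log2 ratios of 0.01, 0.02 and -0.09 in CS16 HL. The set of 384 had 8 members in each of 48 runs of 780 consecutive feature numbers, and 336 of its 383 gaps were of 104 numbers. The 47 smaller sets held 4 or 5 features each, with CS16 HL means between -1.95 and 2.65. What these features hold on the array was not tested.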
